A study of Oryzias latipes with 24 samples.

Results

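Gene expression in medaka (Oryzias latipes) embryos after the onset of gastrulation was compared with expression during cleavage and blastula. The libraries of stages 15 (mid-gastrula) and 19 (first somites) were set against those of stages 6 (cleavage) and 11 (blastula), 4 against 4, which are 8 of the 24 libraries of the series. The members were taken by their stage labels and not by their values. All 8 came from whole embryos of the Hd-rR strain, an inbred laboratory line, with no treatment, and 2 libraries were made for each stage. The study's methods describe many synchronous embryos collected for each stage, so each library is a pool. The labels do not say whether the 2 libraries of a stage came from separate spawnings, so that p-values measure the spread between these libraries, which may be technical. The question was which genes changed in a way that both stages of each side share.

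A fish egg carries RNAs made by the mother, and the first divisions run on this store while the genome of the embryo is nearly silent. Transcription from the embryonic genome starts in earnest in the blastula, and maternal RNAs are then removed, many of them by shortening of the poly(A) tail. In gastrulation cells move inward to form mesoderm and endoderm, the neural plate is set up, and at the periphery an outer epithelium and the yolk syncytial layer, which feeds yolk lipid to the embryo, take on their functions.

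Levels are TPM (transcripts in each 1000000), a share of the poly(A)-captured RNA of a library. Changes are the mean of stages 15 and 19 minus the mean of stages 6 and 11 on log2(TPM + 1), which understates the change of low genes. A gene was called when its Benjamini-Hochberg adjusted p from limma, over all 21179 genes tested, was under 0.05 and its log2 change at least 1. A change was counted as shared when each of the 4 differences between a later and an earlier stage was also at least 1. In these pooled embryos, fewer cells of a type and less RNA per cell cannot be told apart. Nor can either be told from a change in poly(A) tail length that alters capture, which was not tested.

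The libraries of a stage correlated with a Spearman rho of 0.958 to 0.979. The stage 11 libraries stood apart from each other, at -50.8 (replicate 1) and -107 (replicate 2) on a first principal component that held 72.3% of the variance and on which stage 15 and 19 libraries lay between 108 and 135 and stage 6 libraries at -165 and -163. The TPM of replicate 2 libraries sum to 1000000 and those of replicate 1 to slightly less. Between 12442 and 15417 genes reached 1 TPM in a library. Of 25 marker symbols, 15 were found. At stages 15 and 19 the neural and eye field factor pax6 was at 2.15 to 37.5 TPM, against 0 to 0.633 TPM at stages 6 and 11. The mesoderm factor tbxt was at 1.504 to 9.84 TPM in the later libraries, against 0 to 0.193 TPM in the earlier ones. The oocyte gene zar1 was at 6.03 to 15.4 TPM at stages 15 and 19, against 90.5 to 272 TPM at stages 6 and 11. The muscle determination factor myod1 stayed at or below 0.483 TPM in all 8 libraries, whereas its relative myf5 was at 15.4 and 16.3 TPM at stage 19, with at most 0.616 TPM in the other 6 libraries. The 20 tested markers of late differentiation (with the pigment cell gene pmel the most abundant) together held 6.71 and 11.1 TPM at stage 15 and 39.2 and 72.5 TPM at stage 19, against 0.303 and 0.396 TPM at stage 6 and 7.39 and 2.43 TPM at stage 11. Of these markers 7 rose and 0 fell (35.0% and 0%, beside 20.7% and 23.8% of all genes tested), and 0 were shared.

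In all, 5414 genes (25.6% of those tested) changed in a way that both stages of each side share. On the average contrast 4387 genes rose (20.7% of those tested) and 5045 fell (23.8%). Of these, 2269 rises (10.7%) and 3145 falls (14.8%) were shared by both stages of each side. The gene lists below were matched by symbol. Of the 9180 tested genes with a symbol 20.3% rose and 27.5% fell, with a median log2 change of -0.09. The median log2 change was 2.57 among the shared rises and -2.26 among the shared falls, and 0.00 over all genes tested. At 342 rises and 300 falls the change was log2 4 or more in size. The 4 later libraries lay wholly above the 4 earlier ones for 2209 of the shared rises and wholly below for 3078 of the shared falls, where 20.6% and 22.9% of all tested genes did so. Scaling changed the balance of directions: with median-of-ratios scaling 2713 shared rises stood against 2489 shared falls (52.2% rises, against 41.9% without it). Without replicate 1 of stage 11 the shared counts were 2506 rises and 3901 falls, and without replicate 2 of that stage 2058 rises and 2416 falls.

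The shared rises held 31.6 to 33.6% of all TPM at stage 15 and 46.1 to 53.1% at stage 19, against 2.72 to 3.31% at stage 6 and 4.76 to 5.97% at stage 11. The shared falls held 7.56 to 8.14% at stage 15 and 5.17 to 5.58% at stage 19, against 38.05 to 39.3% at stage 6 and 30.6 to 33.8% at stage 11. The most abundant of these falls, IGDB10882 (sequence 001248F), had 15713 and 16570 TPM at stage 15 and 9398 and 4222 TPM at stage 19. Its earlier levels were 52067 and 24402 TPM at stage 6 and 72095 and 22050 TPM at stage 11, so its replicates differed widely. The median shared rise was at 19.8 TPM at stage 15 and 23.0 TPM at stage 19, against 0.481 TPM at stage 6 and 2.50 TPM at stage 11. For the median shared fall the levels were 7.38 and 6.88 TPM at stages 15 and 19, against 60.8 and 42.9 TPM at stages 6 and 11. Both sets were chosen on these libraries, so these shares describe them and test nothing. Under 1 TPM in all 4 earlier libraries were 661 of the rises, and 448 of the falls were under 1 TPM in all 4 later libraries.

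**Figure D1:**
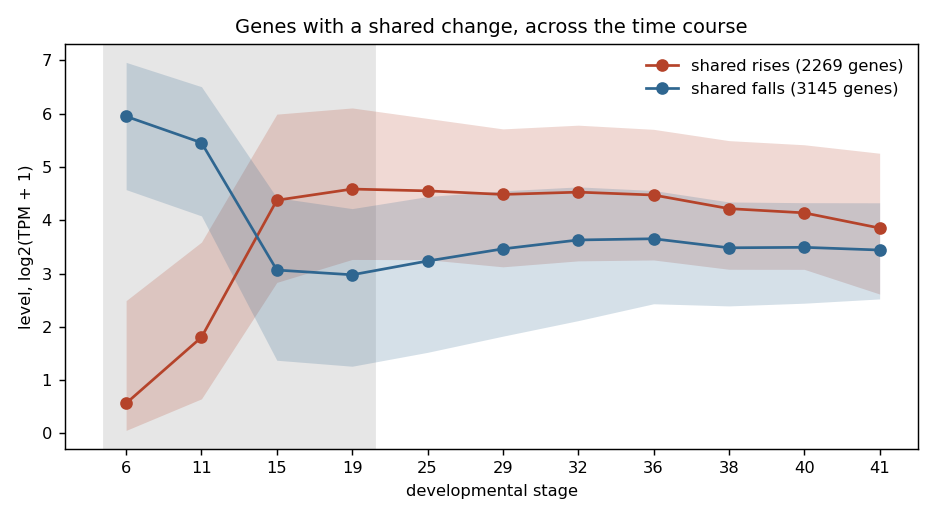
Levels of the genes with a shared change across the 11 stages of the time course, on log2(TPM + 1). Lines join the medians over genes of the mean of 2 libraries, shaded bands span the quartiles, and the grey area holds the 4 stages compared. The median shared rise was at 0.481 TPM at stage 6 and 23.0 TPM at stage 19 and stayed at 13.5 TPM or more through stage 41. The median shared fall was at 60.8 TPM at stage 6 and 6.88 TPM at stage 19.

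Some called genes were not shared. At least 1 difference from stage 11 stayed under log2 1 for 1978 of 2118 such rises and for 1659 of 1900 such falls. By later stage, both differences at stage 19 reached log2 1 and a difference at stage 15 did not for 1035 of the 2118 rises. The reverse, with stage 15 past log2 1 and stage 19 not, held for 692. Among 1900 such falls these counts were 806 and 609. The factor six3 (IGDB17879), which patterns the forebrain and eye, was of the first kind, at 0.518 and 1.94 TPM at stage 15 and 31.5 and 43.0 TPM at stage 19, against 0 and 0 TPM at stage 6 and 2.50 and 2.30 TPM at stage 11, so that its 2 stage 15 libraries lay at or below those of stage 11. Another gene matched to the symbol six3 (IGDB15082) stayed at or below 0.377 TPM in the 8 libraries and did not enter the test. The helicase gene ddx4, or vasa, a marker of germ cells, fell without being shared. It had 141 and 199 TPM at stage 15 and 3.31 and 6.01 TPM at stage 19, against 255 and 436 TPM at stage 6 and 384 and 501 TPM at stage 11. Its log2 change was -3.65 ± 0.31 (SE), adjusted p = 1.75e-08 (limma), and most of it lay at stage 19.

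Among genes with a symbol, the largest shared falls included genes of the egg, nanog, bmp15 and mos among them, which were under 10 TPM in every library of stages 15 and 19. nanog (IGDB18652; chromosome 20, 12547929 to 12549948, minus strand) encodes a homeodomain factor that in zebrafish is supplied by the mother and activates the first embryonic genes. It had 9.57 and 6.20 TPM at stage 15 and 0.736 and 0.605 TPM at stage 19, against 646 and 620.5 TPM at stage 6 and 1406 and 843 TPM at stage 11. Both stage 11 libraries were above both of stage 6, and no later library reached 10 TPM. The log2 change of -7.77 ± 0.24 (SE) was the largest fall of any gene with a symbol (limma, adjusted p = 4.51e-13). ctss (IGDB12413; chromosome 11, 7254462 to 7256257, minus strand), a lysosomal cysteine protease, was at 9.77 and 8.64 TPM at stage 15 and 0.296 and 0.150 TPM at stage 19, against 746 and 937 TPM at stage 6 and 202 and 681 TPM at stage 11. The change was -7.31 ± 0.35 (SE), adjusted p = 2.29e-11 (limma). bmp15 (IGDB17353; chromosome 18, 21189106 to 21192340, plus strand) encodes a growth factor that oocytes secrete to the cells around them. With 0.726 and 0.440 TPM at stage 15 and 0.0238 and 0.0387 TPM at stage 19, against 345 and 101 TPM at stage 6 and 106 and 199.9 TPM at stage 11, it was under 1 TPM in every later library and over 100 TPM in every earlier one. The fall was -7.02 ± 0.34 (SE), adjusted p = 2.40e-11 (limma).

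rgs22 (IGDB15529; chromosome 16, 5963209 to 5982401, plus strand), a regulator of G protein signalling, had 1.19 and 3.12 TPM at stage 15 and 2.34 and 3.15 TPM at stage 19, against 515 and 531 TPM at stage 6 and 146 and 290.4 TPM at stage 11. Its change was -6.62 ± 0.26 (SE, limma adjusted p = 3.28e-12). sybu (IGDB15489; chromosome 16, 4092968 to 4098018, plus strand), or syntabulin, links cargo to kinesin motors and in zebrafish eggs carries the dorsal determinants. Its levels were 10.1 and 1.17 TPM at stage 15 and 0.441 and 0.834 TPM at stage 19, against 505 and 361 TPM at stage 6 and 148 and 201 TPM at stage 11, and the change was -6.59 ± 0.46 (SE), adjusted p = 1.92e-09 (limma). One stage 15 library of sybu was above the other 3 later libraries, and none of the 4 came near the earlier levels. kcnk6 (IGDB13596; chromosome 13, 4364102 to 4379462, minus strand), a background potassium channel, had 3.15 and 3.18 TPM at stage 15 and 1.83 and 1.99 TPM at stage 19, against 446 and 418 TPM at stage 6 and 220.2 and 213 TPM at stage 11. Its change was -6.46 ± 0.23 (SE, limma adjusted p = 1.37e-12). mos (IGDB05388; chromosome 20, 1547709 to 1548689, plus strand), the kinase that holds the ripe egg in metaphase, had 0.308 and 0.359 TPM at stage 15 and 0.0530 and 0.403 TPM at stage 19, against 175 and 112 TPM at stage 6 and 29.6 and 64.5 TPM at stage 11. Both of its stage 11 libraries were lower than both of stage 6, and the fall over the sides was -5.96 ± 0.32 (SE), adjusted p = 7.42e-11 (limma). The other genes of the 12 largest falls with a symbol were phex (an endopeptidase of phosphate balance in mammals, -6.12), micall2 (an adaptor of actin and membrane traffic, -6.11), stbd1 (a glycogen-binding protein, -6.07), socs1 (an inhibitor of cytokine signalling, -5.93) and tmem182 (-5.85).

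**Figure D2:**
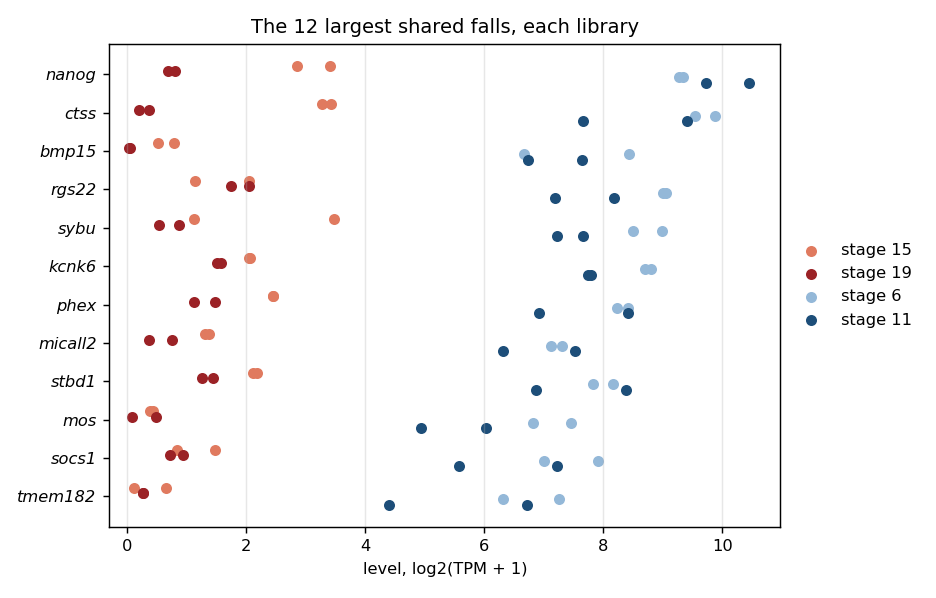
Level of the 12 genes with a symbol that fell most, on log2(TPM + 1), in each of the 8 libraries. Points are single libraries, coloured by stage (15 and 19 in reds, 6 and 11 in blues), and genes are ordered by the size of the fall. For each gene the 4 later libraries lie to the left of the 4 earlier ones; nanog is at 0.605 to 9.57 TPM in the later libraries and at 620.5 to 1406 TPM in the earlier ones.

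Oocyte genes had the highest share of falls of the 27 lists. Of 10 tested oocyte and maternal factors (32 symbols listed), 9 fell, all of them shared, and 0 rose, with a median log2 change of -4.29. Summed over the list there were 191 to 228 TPM in the later libraries and 2263 to 3154 TPM in the earlier ones. The most abundant was ybx2 (IGDB17231), a protein that packages stored mRNA in germ cells. It had 145 and 135 TPM at stage 15 and 191 and 149 TPM at stage 19, against 1082 and 1044 TPM at stage 6 and 1463 and 1424 TPM at stage 11 (-3.00 ± 0.24 (SE), adjusted p = 9.47e-09, limma). zar1 (IGDB21830), an RNA-binding protein of the oocyte, had 15.4 and 12.4 TPM at stage 15 and 6.49 and 6.03 TPM at stage 19, against 218 and 272 TPM at stage 6 and 90.5 and 225 TPM at stage 11. Its change was -4.18 ± 0.34 (SE, limma adjusted p = 1.11e-08).

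Genes of the germ line and of the piRNA pathway, which silences transposons in germ cells, also fell: 13 of 19 tested, 12 of them shared, and 1 rose, with a median of -2.50. rnf17 (IGDB19135), a Tudor protein needed for sperm formation in mice, had 1.17 and 1.02 TPM at stage 15 and 0.181 and 0.205 TPM at stage 19, against 95.6 and 74.3 TPM at stage 6 and 62.7 and 95.3 TPM at stage 11. Its change was -5.69 ± 0.20 (SE, limma adjusted p = 1.15e-12). mov10l1 (IGDB23531), a helicase of piRNA formation, had 0.747 and 0.841 TPM at stage 15 and 0.240 and 0.333 TPM at stage 19, against 51.2 and 75.3 TPM at stage 6 and 41.5 and 90.9 TPM at stage 11. Its change was -5.37 ± 0.24 (SE, limma adjusted p = 1.31e-11). dnd1 (IGDB00669), which protects RNAs in germ cells, was at 0.570 to 2.62 TPM in later libraries and at 9.32 to 13.2 TPM in earlier ones. Its change was -2.50 ± 0.17 (SE, limma adjusted p = 1.53e-09). The germ cell marker nanos3 (IGDB00474) was not called. It had 3.93 and 8.54 TPM at stage 15 and 1.23 and 1.48 TPM at stage 19. The earlier levels were 10.02 and 5.93 TPM at stage 6 and 6.12 and 5.32 TPM at stage 11, so the sides overlapped. The nanos3 change of -0.93 ± 0.26 (SE, limma adjusted p = 4.79e-03) was smaller in size than the minimum. The one rise was nanos1a (IGDB06501), a translational repressor of the Nanos family, at 2.14 and 3.55 TPM at stage 15 and 37.97 and 28.1 TPM at stage 19, against 0.857 and 0.597 TPM at stage 6 and 15.4 and 3.22 TPM at stage 11. Its stage 15 libraries were below one of the stage 11 libraries, and the called rise (1.58 ± 0.32 (SE), adjusted p = 3.22e-04, limma) was not shared.

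Cell cycle genes of mitosis fell more often than they rose. Among 52 mitotic regulators 25 fell, 16 of them shared, and 3 rose (5 under either other scaling), with a median of -0.93. ccnb1 (IGDB13409; chromosome 12, 25680676 to 25684408, plus strand), a B-type cyclin that drives entry into mitosis, was the most abundant. It had 586 and 604 TPM at stage 15 and 209 and 289.5 TPM at stage 19, against 3468 and 4129 TPM at stage 6 and 1959 and 3158 TPM at stage 11. Its change was -3.00 ± 0.40 (SE, limma adjusted p = 4.25e-06). Its relative ccnb2 (IGDB21218) had 45.1 and 42.6 TPM at stage 15 and 11.4 and 15.2 TPM at stage 19, against 1327 and 1596 TPM at stage 6 and 356 and 958 TPM at stage 11. Its change was -5.19 ± 0.32 (SE, limma adjusted p = 4.10e-10). ccne1 (IGDB21773), the cyclin of entry into S phase, was counted in this list and not among the G1 genes below. It was at 14.7 to 41.4 TPM in the later libraries and at 393 to 594 TPM in the earlier ones. Its change was -4.28 ± 0.27 (SE, limma adjusted p = 4.87e-10). The rises included wee1 (IGDB23439), the kinase that restrains mitosis. It had 106 and 174 TPM at stage 15 and 31.1 and 69.4 TPM at stage 19, against 8.73 and 7.14 TPM at stage 6 and 123 and 59.3 TPM at stage 11, so that stage 11 overlapped with the later stages and the call (1.54 ± 0.29 (SE), adjusted p = 1.82e-04, limma) was not shared. Of 45 DNA replication genes 18 fell, 8 of them shared, and 1 rose (median -0.77). Under quantile normalization 12 fell and 2 rose (median -0.34), and under median-of-ratios scaling 13 fell and 3 rose (median -0.49). The count of falls among these genes therefore depended on the scaling. Without such scaling 27.5% of all tested genes with a symbol fell and 20.3% rose. gmnn (IGDB12796), or geminin, which blocks a second round of replication, had 261 and 296 TPM at stage 15 and 42.4 and 84.5 TPM at stage 19, against 669 and 1618 TPM at stage 6 and 879 and 1569.7 TPM at stage 11. Its change was -3.08 ± 0.35 (SE, limma adjusted p = 7.83e-07). The sliding clamp pcna was the most abundant of them and was not called, at 493 to 803 TPM in later libraries and 482 to 1053 TPM in earlier ones (-0.40 ± 0.26 (SE)).

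Genes of the G1 phase, which is short or missing in cleaving cells, gave 5 rises and 3 falls of 24 (median -0.13, of the opposite sign with other scalings). These shares were 20.8% and 12.5%, beside 20.7% and 23.8% of all genes tested, so rises were no more frequent than among all genes. Among tested genes with a symbol the shares were 20.3% and 27.5%. cdkn1c (IGDB23504), an inhibitor of cyclin-dependent kinases, had 108 and 103 TPM at stage 15 and 52.7 and 103 TPM at stage 19, against 0.447 and 0.311 TPM at stage 6 and 41.4 and 51.1 TPM at stage 11. Its change was 3.47 ± 0.26 (SE, limma adjusted p = 3.97e-09). cdk6 (IGDB01281), a kinase of the G1 phase, had 42.2 and 54.6 TPM at stage 15 and 19.5 and 28.7 TPM at stage 19, against 0.0161 and 0.0289 TPM at stage 6 and 28.3 and 6.37 TPM at stage 11. Its change was 3.17 ± 0.32 (SE, limma adjusted p = 1.83e-07). Neither was shared, since both were already present at stage 11. e2f1 (IGDB24122), a transcription factor of entry into S phase, fell, with 6.42 to 14.9 TPM in the later libraries and 45.0 to 62.8 TPM in the earlier ones. Its change was -2.20 ± 0.27 (SE, limma adjusted p = 1.55e-06).

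Factors that shorten and degrade mRNA fell in 16 of 47 cases, 8 of them shared, and rose in 7 (median -0.58), but 9 rose and 7 fell under quantile normalization, 9 rose and 9 fell under median-of-ratios scaling, and 4 rose without replicate 2 of stage 19. tob2 (IGDB25530), which brings the deadenylase to its targets, had 1.34 and 2.43 TPM at stage 15 and 1.41 and 2.69 TPM at stage 19, against 169 and 157 TPM at stage 6 and 57.2 and 133 TPM at stage 11. Its change was -5.37 ± 0.28 (SE, limma adjusted p = 5.47e-11). lsm1 (IGDB26231), part of the ring that binds shortened tails before decapping, had 26.6 and 25.6 TPM at stage 15 and 6.97 and 18.0 TPM at stage 19, against 309.7 and 646 TPM at stage 6 and 66.7 and 367 TPM at stage 11. Its change was -3.87 ± 0.44 (SE, limma adjusted p = 7.91e-07). In the other direction exosc4 (IGDB16886), a subunit of the exosome, had 83.2 and 90.3 TPM at stage 15 and 51.7 and 106 TPM at stage 19, against 15.9 and 10.2 TPM at stage 6 and 15.8 and 18.8 TPM at stage 11. Its change was 2.36 ± 0.25 (SE, limma adjusted p = 3.34e-07). Of the genes for DNA methylation and Polycomb repression 10 of 24 fell and 5 rose (median -0.58). These were 41.7% and 20.8%, beside 23.8% and 20.7% of all genes tested. They moved apart within a family: cbx8 (IGDB11034) fell by 3.31 ± 0.34 (SE) and cbx2 (IGDB24967) rose by 1.86 ± 0.25 (SE), both readers of the Polycomb mark (limma, adjusted p = 1.82e-07 and 5.19e-06). cbx8 had 6.50 and 5.15 TPM at stage 15 and 3.22 and 4.06 TPM at stage 19, against 139 and 31.4 TPM at stage 6 and 37.9 and 52.3 TPM at stage 11. For cbx2 the values were 33.9 and 50.2 TPM at stage 15 and 39.1 and 49.5 TPM at stage 19, against 4.57 and 7.07 TPM at stage 6 and 32.8 and 12.7 TPM at stage 11. tdg (IGDB23453), a glycosylase that removes oxidised methylcytosine, rose, with 110.5 and 85.8 TPM at stage 15 and 118 and 163 TPM at stage 19, against 12.9 and 8.24 TPM at stage 6 and 26.5 and 17.2 TPM at stage 11. Its change was 2.88 ± 0.26 (SE, limma adjusted p = 4.92e-08).

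The 12 largest shared rises among the named genes, all with a symbol, were under 2 TPM in both libraries of stage 6. stm-l (IGDB12354; chromosome 11, 4868976 to 4880350, minus strand) is annotated as starmaker-like, after an otolith protein of zebrafish. It had 1987 and 1537 TPM at stage 15 and 1952 and 2117 TPM at stage 19, against 0.0866 and 0 TPM at stage 6 and 12.1 and 9.41 TPM at stage 11, a change of 9.08 ± 0.23 (SE), adjusted p = 5.36e-14 (limma). rbp4 (IGDB17668; chromosome 19, 6129581 to 6132336, minus strand) encodes the carrier of retinol in plasma. It had 275 and 229 TPM at stage 15 and 2357 and 1513 TPM at stage 19, against 0.507 and 0 TPM at stage 6 and 0 and 7.02 TPM at stage 11 (8.53 ± 0.45 (SE), adjusted p = 7.45e-11, limma), and its stage 19 libraries were above those of stage 15. haao (IGDB14911; chromosome 15, 7297882 to 7309508, minus strand), an enzyme of tryptophan breakdown, was even across the later libraries, at 159 and 129 TPM at stage 15 and 177 and 168 TPM at stage 19, against 0.157 and 0 TPM at stage 6 and 0.614 and 0.417 TPM at stage 11. Its change was 6.95 ± 0.21 (SE, limma adjusted p = 3.58e-13). tmod4 (IGDB16098; chromosome 16, 27106292 to 27120404, plus strand), a capping protein of actin filaments known from skeletal muscle, had 224 and 176 TPM at stage 15 and 182 and 111 TPM at stage 19, against 0.551 and 0.118 TPM at stage 6 and 1.26 and 0.860 TPM at stage 11. Its change was 6.69 ± 0.25 (SE, limma adjusted p = 1.52e-12). Its mean at stage 25 was 15.2 TPM, under each of these 4 later libraries.

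fabp7 (IGDB20673; chromosome 24, 4464728 to 4465892, minus strand), known from glia and neural progenitors, where it carries fatty acids, had 77.2 and 56.9 TPM at stage 15 and 442 and 337 TPM at stage 19, against 0.111 and 0.453 TPM at stage 6 and 0.435 and 2.37 TPM at stage 11. Its change was 6.59 ± 0.27 (SE, limma adjusted p = 5.06e-12). tagln3 (IGDB18740; chromosome 20, 17334474 to 17337573, plus strand), an actin-binding protein of neurons, had 39.2 and 37.9 TPM at stage 15 and 183 and 206 TPM at stage 19, against 0 and 0 TPM at stage 6 and 0 and 1.27 TPM at stage 11. Its change was 6.16 ± 0.25 (SE, limma adjusted p = 3.89e-12). Both were several times higher at stage 19 than at stage 15. Enzymes of both steps of creatine synthesis were among these 12 genes. gatm (IGDB21331; chromosome 3, 13710499 to 13715027, plus strand), the first enzyme, had 189 and 225 TPM at stage 15 and 265 and 317 TPM at stage 19, against 0.631 and 0.697 TPM at stage 6 and 4.56 and 4.92 TPM at stage 11. Its change was 6.31 ± 0.24 (SE, limma adjusted p = 2.43e-12). gamt (IGDB22100; chromosome 4, 13554082 to 13557442, minus strand), the second, had 60.3 and 97.3 TPM at stage 15 and 464 and 395 TPM at stage 19, against 0.649 and 1.89 TPM at stage 6 and 1.14 and 3.32 TPM at stage 11. Its change was 6.15 ± 0.29 (SE, limma adjusted p = 1.83e-11). The gatm levels differed little between the later stages, while gamt was higher at stage 19.

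**Figure D3:**
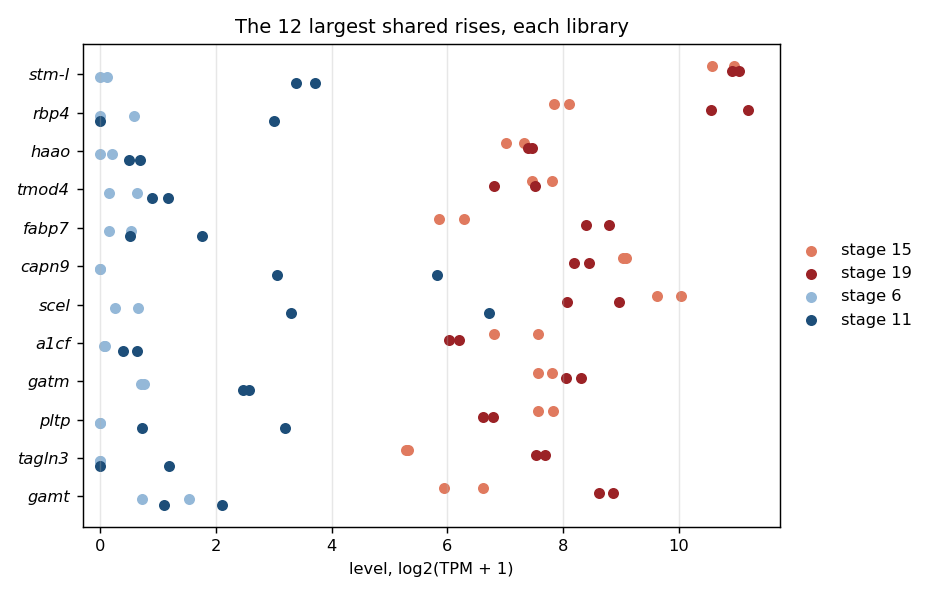
Level of the 12 genes with a symbol that rose most, on log2(TPM + 1), in each of the 8 libraries. Points are single libraries, coloured by stage (15 and 19 in reds, 6 and 11 in blues), and genes are ordered by the size of the rise. For each gene the 4 later libraries lie to the right of the 4 earlier ones, and for scel and capn9 a stage 11 library, at 104 and 55.4 TPM, stands nearest to them.

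Of 14 tested genes of the outer layer and epidermis 7 rose, 5 of them shared, and 1 fell (median 1.15). scel (IGDB19079; chromosome 21, 8569738 to 8585687, plus strand), or sciellin, a precursor of the cornified envelope in mammals, had 1053 and 786 TPM at stage 15 and 499.6 and 267 TPM at stage 19, against 0.575 and 0.192 TPM at stage 6 and 104 and 8.79 TPM at stage 11. Its change was 6.44 ± 0.52 (SE, limma adjusted p = 1.13e-08). anxa1 (IGDB26226), a phospholipid-binding annexin, had 129 and 119.7 TPM at stage 15 and 198 and 346 TPM at stage 19, against 1.15 and 2.101 TPM at stage 6 and 4.81 and 7.31 TPM at stage 11. Its change was 5.42 ± 0.26 (SE, limma adjusted p = 1.88e-11). scel was highest at stage 15 and anxa1 at stage 19. Outside this list, capn9 (IGDB10958; chromosome 1, 2106275 to 2115459, plus strand), a calpain protease, had 523 and 546 TPM at stage 15 and 293 and 351 TPM at stage 19, against 0 and 0 TPM at stage 6 and 55.4 and 7.32 TPM at stage 11. Its change was 6.48 ± 0.38 (SE, limma adjusted p = 2.48e-10). The summed level of the list was 2832 to 3268 TPM at stage 15 and 1256 to 1306 TPM at stage 19, against 230 to 264 TPM at stage 6 and 338 to 774 TPM at stage 11.

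Genes listed for the yolk syncytial layer and lipid transport rose in 7 of 10 cases (31 symbols listed), 6 of them shared, and 0 fell (median 2.64). mttp (IGDB11279; chromosome 1, 16569269 to 16581876, plus strand), which loads lipid onto apolipoprotein B, had 117 and 186 TPM at stage 15 and 43.6 and 68.2 TPM at stage 19, against 0 and 0 TPM at stage 6 and 1.72 and 0.0169 TPM at stage 11. Its change was 6.14 ± 0.40 (SE, limma adjusted p = 8.28e-10). a1cf (IGDB18021; chromosome 19, 21596357 to 21627215, plus strand), a cofactor of apolipoprotein B mRNA editing in mammals, had 111 and 189 TPM at stage 15 and 72.6 and 64.6 TPM at stage 19, against 0.0625 and 0.0429 TPM at stage 6 and 0.310 and 0.560 TPM at stage 11. Its change was 6.36 ± 0.23 (SE, limma adjusted p = 1.37e-12). pltp (IGDB23077; chromosome 5, 25275810 to 25289139, minus strand), which moves phospholipid between lipoproteins, had 189 and 226 TPM at stage 15 and 109 and 97.3 TPM at stage 19, against 0 and 0 TPM at stage 6 and 8.16 and 0.644 TPM at stage 11. Its change was 6.22 ± 0.38 (SE, limma adjusted p = 3.90e-10). All 3 were higher at stage 15 than at stage 19 in every library, but not all of them belong to the list. The summed level of the list went the other way, at 1741 and 2270 TPM at stage 15 and 4825 and 4753 TPM at stage 19. Its median member did not, at 64.0 and 82.5 TPM at stage 15 and 33.1 and 44.9 TPM at stage 19. The largest rise of the list was that of rbp4 (8.53), given above, which was also higher at stage 19. The most abundant of the list was ctsl (IGDB25763), a lysosomal protease. It had 1100.4 and 1488 TPM at stage 15 and 2185 and 2950.5 TPM at stage 19, against 389.6 and 497 TPM at stage 6 and 340.3 and 244 TPM at stage 11. Its change was 2.34 ± 0.30 (SE, limma adjusted p = 2.46e-06).

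Cytoplasmic ribosomal proteins had the highest share of rises of the 27 lists. All 65 tested genes rose (63 under quantile normalization), 64 of them in a shared way, with log2 changes of 1.29 to 5.10 and a median of 3.299. Their summed level was 9.23 and 10.1% of all TPM at stage 15 and 17.6 and 19.2% at stage 19, against 0.910 and 1.36% at stage 6 and 1.81% in each library of stage 11. rpl23a (IGDB14416), of the large subunit, was the most abundant, at 5982 and 2665 TPM at stage 15 and 4409 and 4588 TPM at stage 19, against 233 and 212 TPM at stage 6 and 574 and 294 TPM at stage 11. Its change was 3.81 ± 0.34 (SE, limma adjusted p = 4.36e-08). rpl27a (IGDB23440; chromosome 6, 7463378 to 7466777, minus strand) had 2106 and 1719.7 TPM at stage 15 and 4417 and 3406 TPM at stage 19, against 43.6 and 27.8 TPM at stage 6 and 269 and 113 TPM at stage 11 (5.10 ± 0.32 (SE), adjusted p = 5.20e-10, limma), the largest rise of the list. rpl29 (IGDB22797), with the next largest rise among those named and a wider spread between replicates, was at 150.4 and 477 TPM at stage 15 and 1690.3 and 1035 TPM at stage 19, against 4.05 and 24.8 TPM at stage 6 and 15.2 and 46.2 TPM at stage 11. Its change was 5.07 ± 0.66 (SE, limma adjusted p = 3.52e-06). Ribosomal protein genes have near-identical copies in many genomes, and how reads were split between such copies was not examined here.

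Of 38 translation factors 19 rose, 11 of them shared, and 1 fell (median 0.96). eif3i (IGDB12860; chromosome 11, 26647725 to 26651855, plus strand), a subunit of the initiation factor that binds the small ribosomal subunit, had 205 and 263 TPM at stage 15 and 457 and 438 TPM at stage 19, against 8.78 and 9.41 TPM at stage 6 and 36.1 and 25.4 TPM at stage 11. Its change was 4.19 ± 0.18 (SE, limma adjusted p = 8.12e-12). eef1b2 (IGDB05368), an exchange factor of elongation, had 1034 and 774 TPM at stage 15 and 1222 and 1115 TPM at stage 19, against 25.7 and 36.1 TPM at stage 6 and 42.2 and 64.0 TPM at stage 11. Its change was 4.65 ± 0.25 (SE, limma adjusted p = 8.39e-11). The fall was eif4enif1 (IGDB22552), which carries the cap-binding protein and is known for repression in oocytes. It had 32.8 and 41.4 TPM at stage 15 and 21.1 and 36.1 TPM at stage 19, against 224 and 171 TPM at stage 6 and 104 and 181 TPM at stage 11. Its change was -2.33 ± 0.24 (SE, limma adjusted p = 1.77e-07). Ribosome biogenesis moved less: 30 of 85 rose, 12 of them shared, and 1 fell (median 0.46). Its most abundant gene, nucleolin (ncl, IGDB22055), had 1664 and 2266 TPM at stage 15 and 528 and 1293 TPM at stage 19, against 181 and 326 TPM at stage 6 and 422 and 583 TPM at stage 11 (1.86 ± 0.35 (SE), adjusted p = 1.56e-04, limma), with one stage 19 library inside the range of stage 11.

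Nuclear genes of oxidative phosphorylation rose in 29 of 44 cases, 22 of them shared, and 0 fell (median 1.42), although 1 fell with quantile normalization. The list held 0.651 and 0.839% of TPM at stage 15 and 0.996 and 0.997% at stage 19, against 0.358 and 0.430% at stage 6 and 0.343 and 0.430% at stage 11. ndufa3 (IGDB15856), a subunit of complex I, had 51.5 and 42.9 TPM at stage 15 and 101 and 104 TPM at stage 19, against 2.08 and 3.78 TPM at stage 6 and 3.21 and 3.43 TPM at stage 11. Its change was 4.12 ± 0.47 (SE, limma adjusted p = 6.88e-07). ndufs6 (IGDB12868), of the same complex, had 60.7 and 41.8 TPM at stage 15 and 53.2 and 83.8 TPM at stage 19, against 1.59 and 1.31 TPM at stage 6 and 5.04 and 5.59 TPM at stage 11. Its change was 3.91 ± 0.27 (SE, limma adjusted p = 1.43e-09). Of the 13 genes on the mitochondrial genome 0 rose and 6 fell in a shared way (0% and 46.2%, beside 10.7% and 14.8% of all genes tested). Replicates differed widely for ND2 (IGDB10282), a shared fall. It had 2081 and 2068 TPM at stage 15 and 1481 and 794 TPM at stage 19, against 6387 and 3440 TPM at stage 6 and 7251 and 2816 TPM at stage 11. The ND2 change was -1.62 ± 0.61 (SE, limma adjusted p = 3.03e-02). Of 61 mitochondrial ribosomal proteins 25 rose and 6 fell (median 0.82), with 32 rises and 2 falls under quantile normalization and 33 and 2 under median-of-ratios scaling. mrpl9 (IGDB12258) had 45.6 and 55.8 TPM at stage 15 and 62.4 and 100.2 TPM at stage 19, against 0.986 and 1.74 TPM at stage 6 and 7.97 and 6.02 TPM at stage 11. Its change was 3.90 ± 0.27 (SE, limma adjusted p = 1.74e-09). mrpl44 (IGDB13978) went the other way, with 48.0 and 44.7 TPM at stage 15 and 48.7 and 76.9 TPM at stage 19, against 381 and 421 TPM at stage 6 and 104 and 312 TPM at stage 11. Its change was -2.31 ± 0.32 (SE, limma adjusted p = 6.82e-06).

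**Figure D4:**
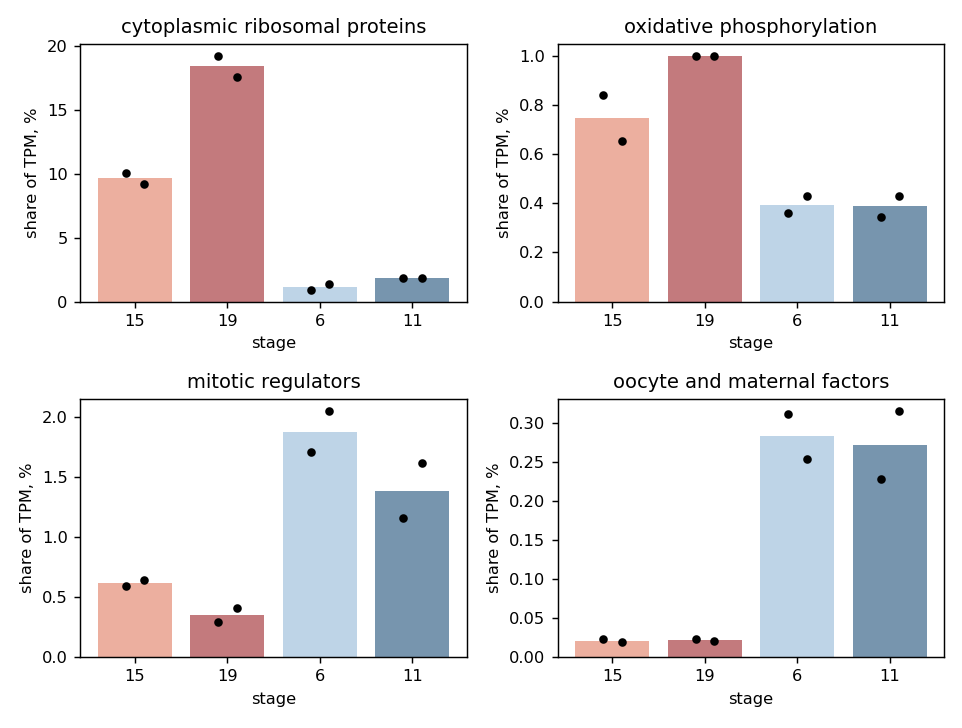
Share of all TPM (percent) held by the tested members of 4 gene lists at stages 15, 19, 6 and 11. Bars are means of 2 libraries and black points the single libraries; each panel has its own axis from 0. Ribosomal protein genes held 17.6 and 19.2% at stage 19 against 0.910 and 1.36% at stage 6, and oocyte factors at most 0.0233% at stages 15 and 19 against at least 0.228% at stages 6 and 11.

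In the Wnt pathway, which patterns the axis, 26 of 49 tested genes rose, 14 of them shared, and 7 fell (median 1.12), although 4 fell under quantile normalization. Among the ligands wnt16 (IGDB06776) fell, with 0.142 and 0.212 TPM at stage 15 and 0.424 and 0.0786 TPM at stage 19, against 12.8 and 7.85 TPM at stage 6 and 7.58 and 11.98 TPM at stage 11. Its change was -3.16 ± 0.19 (SE, limma adjusted p = 3.40e-10). The receptor ror2 (IGDB13450), which binds noncanonical Wnt ligands, had 126 and 43.9 TPM at stage 15 and 76.3 and 74.1 TPM at stage 19, against 0.839 and 0.6001 TPM at stage 6 and 34.0 and 4.82 TPM at stage 11. Its change was 3.94 ± 0.48 (SE, limma adjusted p = 1.69e-06). dvl1 (IGDB24644), a cytoplasmic transducer, fell by 2.17 ± 0.29 (SE) (limma, adjusted p = 4.19e-06), with 3.24 and 4.68 TPM at stage 15 and 3.34 and 4.32 TPM at stage 19, against 59.1 and 24.5 TPM at stage 6 and 8.08 and 15.2 TPM at stage 11. The secreted inhibitor sfrp1 (IGDB26399) had 71.8 and 82.9 TPM at stage 15 and 34.2 and 50.8 TPM at stage 19, against 0 and 0 TPM at stage 6 and 17.3 and 8.27 TPM at stage 11. The rise passed the test (limma adjusted p = 4.57e-10). It was listed at 0 in both libraries of stage 6. The most abundant gene, beta-catenin (ctnnb1, IGDB15676), was not called, at 339 to 883 TPM in the later libraries and 312 to 588 TPM in the earlier ones.

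In the Nodal and BMP pathway, which sets germ layers and the dorsoventral axis, 16 of 36 rose, 4 of them shared, and 7 fell (median 0.88), although 2 fell under quantile normalization. The transducer smad2 (IGDB13343) fell, with 13.97 and 21.5 TPM at stage 15 and 11.3 and 16.0 TPM at stage 19, against 137 and 141 TPM at stage 6 and 46.6 and 92.8 TPM at stage 11. Its change was -2.57 ± 0.25 (SE, limma adjusted p = 1.03e-07). The inhibitory smad6 (IGDB23673) rose, with 21.3 and 17.7 TPM at stage 15 and 49.8 and 51.9 TPM at stage 19, against 0 and 0 TPM at stage 6 and 3.07 and 1.02 TPM at stage 11. Its change was 4.26 ± 0.22 (SE, limma adjusted p = 5.77e-11). id3 (IGDB19761), a direct target of BMP signals, had 309.9 and 287 TPM at stage 15 and 196 and 299 TPM at stage 19, against 0.678 and 0.523 TPM at stage 6 and 87.4 and 7.95 TPM at stage 11. Its change was 5.33 ± 0.49 (SE, limma adjusted p = 5.17e-08). Replicate 1 of stage 11 was far above replicate 2 for id3. In the FGF pathway 13 of 25 rose, 10 of them shared, and 1 fell (median 1.31). etv4 (IGDB17971), a transcription factor that responds to FGF, had 247 and 168 TPM at stage 15 and 129 and 103 TPM at stage 19, against 0.185 and 0.0309 TPM at stage 6 and 19.9 and 2.32 TPM at stage 11. Its change was 5.67 ± 0.45 (SE, limma adjusted p = 8.17e-09). dusp6 (IGDB23333), the phosphatase that limits the pathway, had 76.7 and 111 TPM at stage 15 and 77.6 and 93.8 TPM at stage 19, against 0.678 and 0.319 TPM at stage 6 and 43.9 and 7.06 TPM at stage 11. Its change was 4.08 ± 0.36 (SE, limma adjusted p = 2.86e-08).

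Of 24 genes of the Notch pathway and of segmentation 13 rose, 6 of them shared, and 5 fell (median 1.17), although 3 fell under quantile normalization. hes6 (IGDB14120), a bHLH factor of neural and mesodermal progenitors, had 67.7 and 47.9 TPM at stage 15 and 54.1 and 68.9 TPM at stage 19, against 0 and 0 TPM at stage 6 and 1.38 and 1.55 TPM at stage 11. Its change was 5.26 ± 0.22 (SE, limma adjusted p = 6.54e-12). aldh1a2 (IGDB21508), the enzyme that makes retinoic acid in early mesoderm, had 74.2 and 88.3 TPM at stage 15 and 19.2 and 29.3 TPM at stage 19, against 0.0284 and 0 TPM at stage 6 and 4.12 and 1.60 TPM at stage 11 (4.55 ± 0.25 (SE), adjusted p = 9.53e-11, limma), and was lower at stage 19 than at stage 15. The Notch ligand jag1 (IGDB15369) fell without being shared. It had 12.1 and 13.3 TPM at stage 15 and 10.5 and 20.6 TPM at stage 19, against 151 and 79.1 TPM at stage 6 and 14.3 and 46.8 TPM at stage 11. Its change was -1.89 ± 0.31 (SE, limma adjusted p = 3.96e-05).

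Of 40 mesoderm, endoderm and organizer factors 28 rose, 14 of them shared, and 1 fell (median 2.01). gata4 (IGDB20990), a factor of heart and endoderm, had 247 and 295 TPM at stage 15 and 219 and 138 TPM at stage 19, against 0.0270 and 0 TPM at stage 6 and 85.7 and 6.49 TPM at stage 11. Its change was 5.42 ± 0.61 (SE, limma adjusted p = 6.17e-07). gata6 (IGDB16933), of the same roles, had 108 and 136 TPM at stage 15 and 116 and 95.6 TPM at stage 19, against 0.0715 and 0.193 TPM at stage 6 and 108 and 5.31 TPM at stage 11. Its change was 4.39 ± 0.55 (SE, limma adjusted p = 2.36e-06). For both, replicate 1 of stage 11 was far above replicate 2, and for gata6 it reached the later range. The fall was tbx20 (IGDB16179), a T-box factor of the heart, at 1.51 and 0.661 TPM at stage 15 and 13.8 and 12.1 TPM at stage 19, against 81.0 and 26.5 TPM at stage 6 and 42.6 and 41.4 TPM at stage 11. Its change was -3.08 ± 0.36 (SE, limma adjusted p = 1.09e-06). Of 66 neural plate and neural crest factors 45 rose, 12 of them shared, and 2 fell (median 1.67). dlx3 (IGDB17625), of the border of the neural plate, had 161 and 145 TPM at stage 15 and 110.1 and 115 TPM at stage 19, against 0.445 and 0.116 TPM at stage 6 and 26.6 and 12.2 TPM at stage 11. Its change was 4.75 ± 0.22 (SE, limma adjusted p = 1.52e-11). otx2 (IGDB19857), of the forebrain and midbrain, was at 3.24 to 16.0 TPM in the later libraries and at 0 to 0.463 TPM in the earlier ones. Its change was 2.89 ± 0.27 (SE, limma adjusted p = 5.44e-08). tfap2a (IGDB18661), a neural crest and epidermal factor, was the most abundant of the list, with 208 and 175 TPM at stage 15 and 146 and 119 TPM at stage 19, against 0.294 and 0 TPM at stage 6 and 225 and 51.7 TPM at stage 11. Its stage 11 libraries spanned the later levels. The cell adhesion molecule ncam1 (IGDB13727) fell, with 0.624 and 1.28 TPM at stage 15 and 6.52 and 10.2 TPM at stage 19, against 70.6 and 58.1 TPM at stage 6 and 22.9 and 62.9 TPM at stage 11 (-3.58 ± 0.30 (SE), adjusted p = 1.55e-08, limma), and was higher at stage 19 than at stage 15.

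Among 15 blastula and pluripotency factors 8 rose and 4 fell (median 1.29). These were 53.3% and 26.7%, beside 20.3% and 27.5% of tested genes with a symbol. The growth regulators myc and mycn moved in opposite directions on the average contrast, but only the fall of myc was shared. myc (IGDB18853) had 14.03 and 66.7 TPM at stage 15 and 20.8 and 36.3 TPM at stage 19, against 123 and 269 TPM at stage 6 and 47.4 and 158 TPM at stage 11 (-2.07 ± 0.43 (SE), adjusted p = 4.83e-04, limma), with overlap between the sides. mycn (IGDB20753) had 150.3 and 131 TPM at stage 15 and 80.1 and 127 TPM at stage 19, against 0 and 0.0644 TPM at stage 6 and 168 and 17.5 TPM at stage 11. Its change was 3.98 ± 0.43 (SE, limma adjusted p = 4.06e-07). Replicate 1 of stage 11 was above every later library of mycn, so its sides overlapped too. foxd3 (IGDB22175), a factor of pluripotent cells and neural crest, rose without overlap, at 21.6 and 31.4 TPM at stage 15 and 14.5 and 19.4 TPM at stage 19, against 0.139 and 0.152 TPM at stage 6 and 0.699 and 0.262 TPM at stage 11. Its change was 4.08 ± 0.23 (SE, limma adjusted p = 1.20e-10). Of 9 tested Hox genes (52 symbols listed) 3 rose, 0 fell and 0 were shared, but 2 rose and 2 fell under quantile normalization. hoxa9 (IGDB12487) had 0 and 1.25 TPM at stage 15 and 19.5 and 34.4 TPM at stage 19, against 2.35 and 0.379 TPM at stage 6 and 1.26 and 0.772 TPM at stage 11, so that only the stage 19 libraries were above all others. Myogenic and heart factors gave 12 rises and 2 falls of 30 (median 0.86).

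Of 62 genes of cell adhesion and extracellular matrix 32 rose, 19 of them shared, and 7 fell (median 1.12), although 4 fell under median-of-ratios scaling. hapln3 (IGDB23467), a link protein of hyaluronan, had 112 and 66.5 TPM at stage 15 and 112 and 179.7 TPM at stage 19, against 0.0250 and 0 TPM at stage 6 and 4.14 and 3.10 TPM at stage 11. Its change was 5.70 ± 0.25 (SE, limma adjusted p = 1.08e-11). fbln1 (IGDB20235), a fibulin of basement membranes, had 98.5 and 113 TPM at stage 15 and 51.7 and 44.9 TPM at stage 19, against 0.206 and 0.0530 TPM at stage 6 and 2.21 and 0.424 TPM at stage 11. Its change was 5.54 ± 0.32 (SE, limma adjusted p = 1.63e-10). The junction proteins ctnnd1 (IGDB11920) and ctnna1 (IGDB12077), both catenins, fell instead, but neither fall was shared. The fall of a related gene, ctnna2 (IGDB11235), was shared, at -2.03 ± 0.22 (SE, limma adjusted p = 4.36e-07). ctnnd1 had 165 and 227 TPM at stage 15 and 50.2 and 71.9 TPM at stage 19, against 261 and 286 TPM at stage 6 and 398 and 265 TPM at stage 11. Its change was -1.45 ± 0.19 (SE, limma adjusted p = 3.87e-06). ctnna1 had 141 and 275 TPM at stage 15 and 55.2 and 102 TPM at stage 19, against 187 and 319 TPM at stage 6 and 330.3 and 318 TPM at stage 11 (-1.20 ± 0.25 (SE), adjusted p = 4.54e-04, limma), with a stage 15 library inside the earlier range, and its call was lost without replicate 1 of stage 15 or of stage 19 (-0.96 and -0.99).

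**Figure D5:**
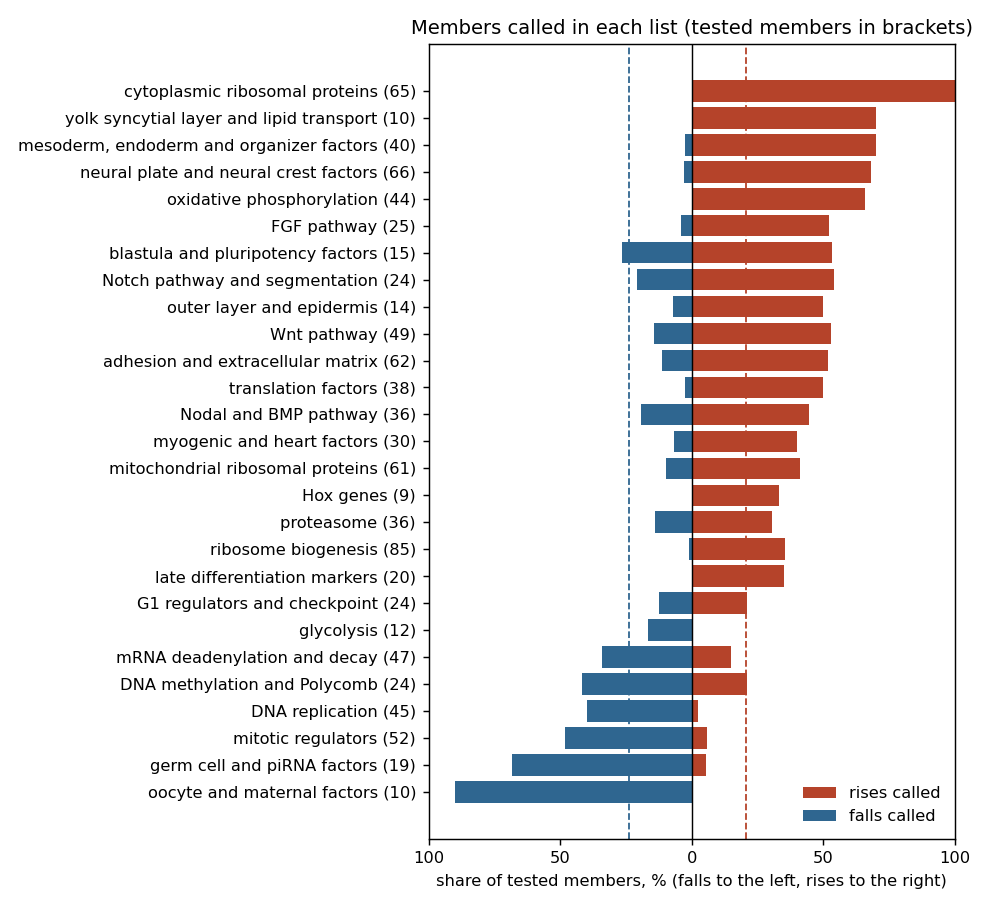
Share of the tested members of each gene list (percent) that rose (right, red) or fell (left, blue) on the average contrast, ordered by median change, with the number of tested members in brackets. Dashed lines mark the same shares over all 21179 genes tested, 20.7% and 23.8%. Over the 9180 tested genes with a symbol these shares were 20.3% and 27.5%. All 65 cytoplasmic ribosomal proteins rose and 9 of 10 oocyte factors fell.

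The largest rise and the largest fall belonged to genes without a symbol, and the 4 genes given here were chosen after their values were seen. IGDB16139 (chromosome 16, 29123061 to 29124145, minus strand) had 8350.2 and 8599 TPM at stage 15 and 49235 and 15744 TPM at stage 19, against 0.595 and 0.139 TPM at stage 6 and 109 and 57.6 TPM at stage 11. Its change was 10.53 ± 0.57 (SE, limma adjusted p = 8.19e-11), the largest rise of all. In replicate 1 of stage 19 it alone held 5.02% of TPM. IGDB14133 (chromosome 13, 32683677 to 32697901, minus strand) had 7789 and 6439.7 TPM at stage 15 and 23277 and 11084 TPM at stage 19, against 10.9 and 3.70 TPM at stage 6 and 38.8 and 44.9 TPM at stage 11. Its change was 9.22 ± 0.43 (SE, limma adjusted p = 1.56e-11). The gene with the largest fall was IGDB14309 (chromosome 14, 8791199 to 8791937, plus strand), with 40.5 and 17.5 TPM at stage 15 and 0.773 and 0.391 TPM at stage 19, against 3253 and 3365 TPM at stage 6 and 1057 and 1876 TPM at stage 11. Its change was -8.36 ± 0.27 (SE, limma adjusted p = 5.31e-13). IGDB22692 (chromosome 5, 5372617 to 5373994, plus strand) had 163 and 155 TPM at stage 15 and 2.60 and 1.90 TPM at stage 19, against 2084 and 4259 TPM at stage 6 and 1483 and 3608 TPM at stage 11. Its change was -6.85 ± 0.33 (SE, limma adjusted p = 2.47e-11).

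Of 1571 transcription factors tested, 431 (27.4%) rose and 316 (20.1%) fell, against 20.7% and 23.8% of all genes. They made up 7.23% of the shared rises and 5.31% of the shared falls, beside 7.42% of all genes tested. Among shared rises they were therefore no more frequent than among all genes. The Homeobox family gave 84 rises and 29 falls of 227 (64 and 40 with quantile normalization), with 21 and 16 shared. Of all genes tested 10.7% were shared rises and 14.8% shared falls. The bHLH family gave 41 rises and 21 falls of 123, with 21 and 12 shared. The zf-C2H2 family, the most numerous, gave 132 rises and 120 falls of 550, but 77 and 83 with quantile normalization and 157 and 94 with median-of-ratios scaling. The MYB family had 3 rises and 10 falls of 30. Of 314 long noncoding RNAs that passed the filter, out of 1135, 91 (28.98%) rose and 24 (7.64%) fell. Long noncoding RNAs were 1.59% of the shared rises and 0.636% of the shared falls, beside 1.48% of all genes tested. As a description with no test, the longest transcript of a shared rise had a median of 2276 bases and 7 exons and that of a shared fall 2748 bases and 10 exons, beside 2536 bases and 8 exons over all genes tested.

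Most shared changes lasted through the stages that the contrast did not use. At all 7 stages from 25 to 41, 1552 of 2269 shared rises (68.4%) stayed at least log2 1 above the mean of stages 6 and 11, and 1974 of 3145 shared falls (62.8%) stayed at least log2 1 below it. At stage 25 these shares were 93.2% and 91.4%, and at stage 41 they were 76.5% and 78.8%. At 1 or more of these stages 531 falls (16.9%) came back to the earlier mean or above it, and 235 rises (10.4%) dropped to it or below. These levels were not tested. Their reference, the mean of stages 6 and 11, comes from libraries on which both sets were chosen. The shares therefore describe the sets and test nothing, and the same shares over all genes tested were not computed. The tropomyosin gene tpm1 (IGDB23713) had 5.20 and 9.17 TPM at stage 15 and 2.58 and 5.69 TPM at stage 19, against 18.8 and 29.3 TPM at stage 6 and 31.3 and 56.2 TPM at stage 11 (-2.38 ± 0.31 (SE), adjusted p = 3.64e-06, limma), and its stage mean was then 401 TPM at stage 29 and 4134 TPM at stage 41. tmem182, a membrane protein of muscle in mammals, had 0.0809 and 0.567 TPM at stage 15 and 0.209 and 0.198 TPM at stage 19, against 78.3 and 151 TPM at stage 6 and 20.1 and 105 TPM at stage 11, and reached 94.5 TPM at stage 36. The glycolytic enzyme tpi1 (IGDB15923) had 8.96 and 11.8 TPM at stage 15 and 45.0 and 75.8 TPM at stage 19, against 258 and 582 TPM at stage 6 and 91.2 and 426 TPM at stage 11 (-3.42 ± 0.39 (SE), adjusted p = 6.81e-07, limma), and stood between 161 and 442 TPM from stage 25 on. In this list of 12 glycolytic genes 2 fell and 0 rose (16.7% and 0%, beside 23.8% and 20.7% of all genes tested).

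Some RNAs of the shared falls, oocyte factors among them, were higher again at the last stage. nanog was at or under 0.212 TPM as a mean from stage 25 to stage 40, and at 5.09 and 12.6 TPM in the 2 libraries of stage 41. zar1 was at 29.2 and 88.8 TPM there, bmp15 at 6.65 and 20.8 TPM and ctss at 34.7 and 126 TPM. Of the 10 oocyte factors 6 were higher in both libraries of stage 41 than in all 12 libraries of stages 25 to 40. The same held for 426 of the 3145 shared falls and for 6 of 19 germ cell genes. The germ cell list summed to 78.5 and 128 TPM at stage 41, within its 60.7 to 144 TPM at stages 25 to 40. The share over all genes tested was not computed. The oocyte list summed to 165 and 349 TPM at stage 41, against 65.9 to 137 TPM at stages 25 to 40. The higher value of each belongs to replicate 2, which is labelled d-rR / Qurt where replicate 1 is labelled Hd-rR. Replicate 2 of stage 40, among the 12 libraries of stages 25 to 40, is also of the other strain. The part of strain in these levels was not tested.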

How the data were processed

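Poly(A) RNA of whole medaka embryos was sequenced at 11 stages, and 4 of these (2 libraries each) were compared here. The deposited values are TPM per gene, computed by the authors with StringTie 1.3.3b after alignment with HISAT2 2.1.0, on their own gene annotation. TPM are shares of a library and keep no depth, so the depth behind a value is unknown and a large change in a few genes moves all others. The stages were taken from the labels.

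Genes of 1 TPM or more in at least 2 libraries entered the test (21179 of 26549). limma 3.58.1 in R 4.3.3 fitted log2(TPM + 1) with a mean per stage over the 22 libraries of the time course and a variance trend, and p-values were adjusted by Benjamini-Hochberg over all genes tested. The 22 libraries include those of the other strain, so their differences from replicate 1 of the same stage enter the spread behind each p-value. Without the libraries of the other strain 4391 genes rose and 5042 fell. The contrast, the minimum log2 change of 1 and the rule for a shared change are given with the results. The scripts were tested on simulated data. Coordinates are those of the deposited gene models, and symbols came from the RefSeq gene table of assembly ASM223467v1, matched by position (overlap of at least 0.5 of the union). Of the 18107 genes that matched, 9404 had a symbol, against 2415 matches after a shift of 200000 bases, so single symbols may be wrong. The named genes include the 12 largest shared rises and falls. These were taken among genes with a symbol, no overlap between the sides and at least 10 TPM on the higher side. Up to 2 called genes per direction and the most abundant gene of each of 27 lists were added. So were the markers and 4 genes chosen after their values were seen. Not all of these genes are printed in the text. ND2 and IGDB10882 were also chosen after their values were seen, and are outside the counts of named genes. A listed symbol matched a gene exactly or with a final a or b, except rhob, cdc20b and kif26b, which name other genes and were taken out after the values were seen. Many listed symbols matched no gene, so the tested members are only a part of each list. The members and lists were chosen with earlier results of these data known. Other pseudocounts, filters, scalings, minimum changes, fits and single libraries left out were tried. The adult ovary and testis table was not used here, since its identifiers could not be joined to the time course. Tables were handled with Python 3.11.15 and pandas 2.3.3, and figures drawn with matplotlib 3.10.9.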

Additional observations from a re-analysis of the deposited data

How the results depend on the processing

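Both directions kept a count within 1.5 times under another filter, quantile normalization, median-of-ratios scaling, no variance trend, only the 8 libraries, and without the libraries of the other strain. With a pseudocount of 5, 2587 genes rose and 1300 rises were shared, and with 0.1 there were 3472 shared rises. With a minimum log2 change of 2, 2027 genes rose and 2129 fell, 873 and 1106 of them shared, and with no minimum 5150 rises and 6101 falls were shared. These counts follow from the minimum and the scale themselves. Leaving out each library in turn gave 4050 to 4675 rises and 4645 to 5433 falls, with 2058 to 2506 and 2416 to 3901 shared. Of 122 named genes with a call, 95 kept it under each of 21 alternatives and 0 reversed. The replicate block gave 4421 rises and 5064 falls, 2275 and 3146 of them shared. Libraries of the same number deviated together only weakly (Pearson r across genes of 0.048 to 0.261 over 6 pairs of stages, genes not being independent), and the labels tie no number to a shared spawning, so the libraries were not paired. Depth is unknown, which leaves the counting error of low TPM without an estimate. The planned description of levels in the gonads was not run.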
